A study of Mus musculus with 4 samples.

Results

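The genes described here encode the proteins of the cytoplasmic ribosome in mouse DFAT cells, measured on 4 arrays. They were chosen by name: a gene was included where a probe set with a single gene symbol carried an Rps or Rpl number symbol, or one of Rpsa, Rplp0, Rplp1 and Rplp2, with the S6 kinase genes left out. This gave 49 genes of 18193 with such a probe set, 23 of the small and 26 of the large subunit, and each was read from its brightest probe set, taken by the mean of the arrays. A gene was called measured where its highest array reached 5.69 on the log2 scale, the median of all values, and 46 of the 49 genes did so, 21 of the small and 25 of the large subunit. The genes not measured were Rps16, Rpl3l, a paralog of Rpl3 known from striated muscle, and Rps4l. Rps16 read 3.11 with Y-27632 and 3.72 with DMSO, and 3.09 with Mkl1 siRNA and 2.98 with control siRNA. Rpl3l read between 3.53 and 3.79 on the 4 arrays and Rps4l between 5.00 and 5.13. The array also holds 110 probe sets that carry a ribosomal protein symbol together with other symbols. They cover 43 ribosomal protein symbols, 28 of them with no probe set of their own, and appear here only as a group.

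DFAT cells are de-differentiated fat cells, fibroblast-like cells that mature adipocytes give rise to when they lose their lipid in culture. The 4 groups were DFAT cells treated with the small molecule Y-27632, DFAT cells treated with the solvent DMSO, DFAT cells transfected with an siRNA against Mkl1, and DFAT cells transfected with a control siRNA. Mkl1, now named Mrtfa, is an actin-regulated coactivator of the transcription factor SRF. All were kept in DMEM with serum; the sources used here do not state dose, duration or siRNA sequence. Each group had 1 array, so no value has an error, no difference has a replicate check and no test was possible. Every comparison below describes 1 array set against another. Values are log2 signals as the authors deposited them, a difference of 1 is 2-fold, and differences are given for Y-27632 over DMSO, for Mkl1 siRNA over control siRNA and for control siRNA over DMSO, each as the first minus the second. The last of these shares the DMSO array with the first and the control siRNA array with the second, so the 3 sets of differences are not independent.

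The eukaryotic ribosome joins a small subunit, which reads the mRNA, to a large subunit, which makes the peptide bond, and the proteins of each are assembled on ribosomal RNA in the nucleolus. Most of the protein genes are expressed together in every growing cell, and their mRNAs begin with a terminal oligopyrimidine tract, an unbroken run of C and T at the first transcribed bases that lets mTOR and LARP1 control their translation. Because their mRNAs are abundant and steady in many settings, several of these genes, among them Rplp0, Rps18, Rpl13a and Rpl19, serve as references in quantitative PCR.

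The start regions of the genes to which the results return are shown first, since the run of C and T at the start is what the family is known for. The sequences are from RefSeq, build GRCm38.p6, on the strand of the gene, and span 30 bases before the annotated start and 30 bases from it. Capitals mark the longest run of C and T.
Rps6, chr4:86857338-86857397, minus strand: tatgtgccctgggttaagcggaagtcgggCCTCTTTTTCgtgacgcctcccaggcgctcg
Rps25, chr9:44407684-44407743, plus strand: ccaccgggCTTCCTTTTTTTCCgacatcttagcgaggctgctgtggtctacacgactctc
Rpl12, chr2:32961682-32961741, plus strand: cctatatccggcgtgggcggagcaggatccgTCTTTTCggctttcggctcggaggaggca
Rpl14, chr9:120571487-120571546, plus strand: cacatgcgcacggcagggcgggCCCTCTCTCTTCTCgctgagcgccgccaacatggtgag
Rplp0, chr5:115559437-115559496, plus strand: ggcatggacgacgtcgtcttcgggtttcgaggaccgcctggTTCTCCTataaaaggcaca
Rplp2, chr7:141447621-141447680, plus strand: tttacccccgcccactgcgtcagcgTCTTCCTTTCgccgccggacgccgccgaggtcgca
Rps18, chr17:33955636-33955695, minus strand: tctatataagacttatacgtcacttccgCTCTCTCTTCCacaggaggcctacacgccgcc

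The capitalised run was 14 bases long in Rps25 and Rpl14, 11 in Rps18, 10 in Rps6 and Rplp2, and 7 in Rpl12 and Rplp0. Counted from the annotated start, it began at -22 in Rps25, -8 in Rpl14, -5 in Rplp2 and -2 in Rps18. In Rps6 it began at -1, in Rpl12 at 2 and in Rplp0 at 12. RefSeq windows were found for 43 of the 49 genes, some with more than 1 annotated start, giving 51 windows. A run of at least 8 C and T on the strand of the gene stood within 30 bases of the start in 25 of the 51 windows (49.0%) and in 22.9% of all 32851 windows in the table. The letters CTTTC on the strand of the gene stood in the same stretch of 14 windows (27.5%), against 7.93% of all windows, and some of these overlap such a run. The letters CGGAAG, the core to which ETS-family factors bind, were found on either strand of the whole window of 300 bases in 31 of 51 windows (60.8%), against 16.9% of all windows. CACGTG, the E-box bound by Myc, was found on either strand in 5 windows (9.80%), which belong to Rps19, Rpl13a, Rpl14 and Rpl19, against 7.15% of all windows. A CArG box, the sequence to which SRF binds, was found in 1 window, that of Rpl10a, against 1.63% of all windows.

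Genes with and without a run of at least 8 C and T anywhere within 30 bases of the start had like differences between arrays. This split does not score an oligopyrimidine tract at the first transcribed base. The 24 measured genes with a run of at least 8 had median differences of -0.01 with Y-27632, 0.03 with Mkl1 siRNA and -0.08 with control siRNA, each against its own control array. The 17 without one had medians of -0.03, 0.02 and -0.08 in the same order. Rpl10a, the gene with the CArG box, read 13.89 with Y-27632 and 13.93 with DMSO, and 13.84 with Mkl1 siRNA and 13.72 with control siRNA. It differed by 0.13 with Mkl1 siRNA, and by -0.21 between the control arrays.

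The ribosomal protein genes read near the top of the array's scale on all 4 arrays and moved little between them. Their median signal was 13.97 with Y-27632 and 14.00 with DMSO, and 13.93 with Mkl1 siRNA and 13.92 with control siRNA, where the highest value on any array was 14.6. Of the 46 measured genes, 35 had a mean signal of 13 or more. These readings say where the probe sets lay on the scale and do not rank the genes by RNA abundance, since probe sets bind with unequal efficiency. The distance between the lowest and the highest of the 4 arrays had a median of 0.10 over the 46 genes, and 31 of them (67.4%) stayed within 0.2. Over all 11600 measured genes that median was 0.37 and 18.5% stayed within 0.2. The 50 other genes whose mean signal fell between the quartiles of the ribosomal protein genes had a median distance of 0.25, and 18 of them (36%) stayed within 0.2. Whether readings so near the top of the scale understate differences was not tested.

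**Figure D1:**
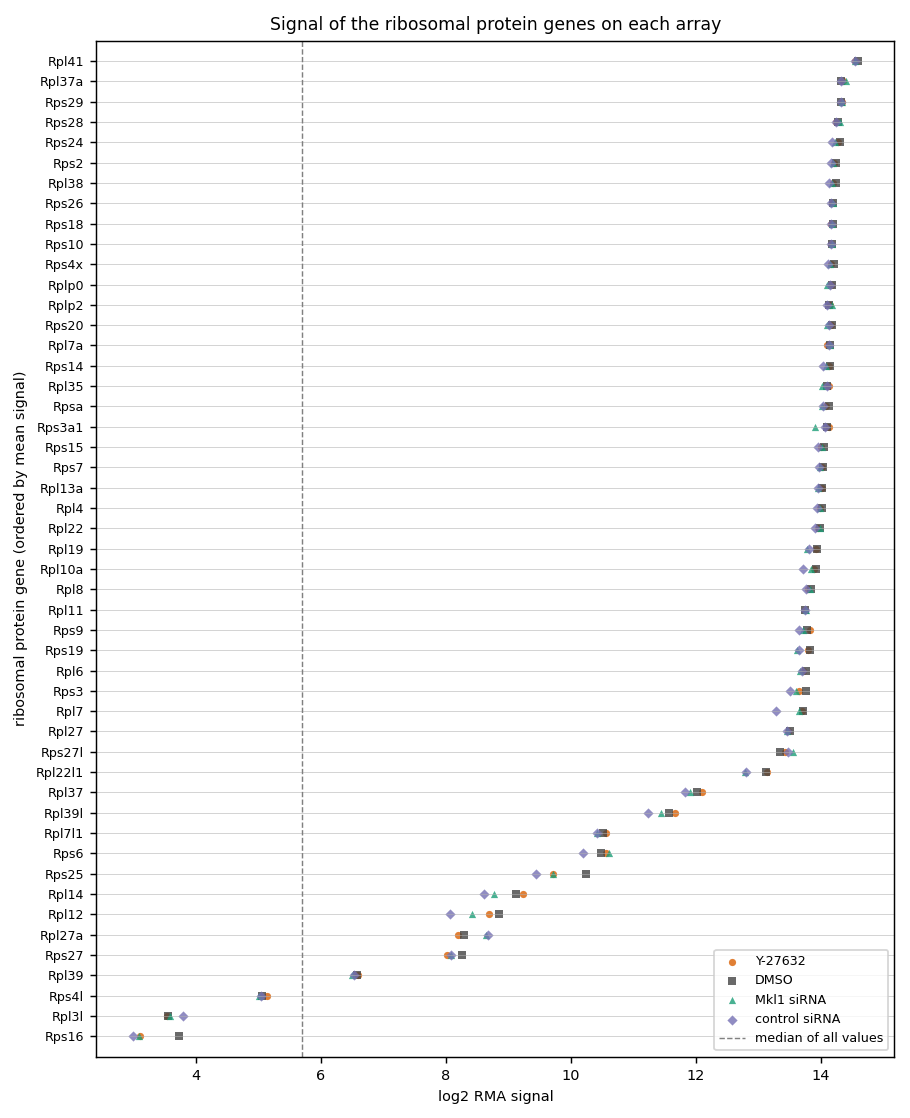
Log2 RMA signal (x axis) of the 49 ribosomal protein genes (rows, ordered by mean signal) on the Y-27632, DMSO, Mkl1 siRNA and control siRNA arrays (1 point each). Most genes lie between 13 and 14.6 with the 4 points on top of each other, the points spread apart for Rps25, Rpl14 and Rpl12, and 3 genes lie below the dashed line at 5.69.

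The flattest genes came from both subunits. Rps29, a small zinc-binding protein of the small subunit, read 14.34 with Y-27632 and 14.33 with DMSO, and 14.34 with Mkl1 siRNA and 14.33 with control siRNA. Rpl11, which enters the large subunit with Rpl5 and 5S ribosomal RNA and can bind Mdm2, read 13.75 with Y-27632 and 13.76 with DMSO, and 13.77 with Mkl1 siRNA and 13.75 with control siRNA. For both genes the arrays coincided to within 0.02. Another 9 genes of the small subunit stayed within 0.1, namely Rps2, Rps4x, Rps7, Rps10, Rps15, Rps18, Rps20, Rps26 and Rps28. In the large subunit the other genes within 0.1 were Rpl4, Rpl6, Rpl7a, Rpl8, Rpl13a, Rpl22, Rpl27, Rpl37a, Rpl38, Rpl39, Rpl41, Rplp0 and Rplp2. Rps9, Rps14, Rps24, Rpsa, Rpl7l1, Rpl19 and Rpl35 lay between 0.1 and 0.2. The remaining 15 reached at least 0.2, and they were Rps3, Rps3a1, Rps6, Rps19, Rps25, Rps27, Rps27l, Rpl7, Rpl10a, Rpl12, Rpl14, Rpl22l1, Rpl27a, Rpl37 and Rpl39l.

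Rpl41, a very short and basic peptide of the large subunit, had the highest mean and read 14.54 with Y-27632 and 14.60 with DMSO, and 14.55 with Mkl1 siRNA and 14.55 with control siRNA. Rpl39, which lines the exit tunnel of the nascent peptide, had the lowest mean of the measured genes and read 6.60 with Y-27632 and 6.57 with DMSO, and 6.50 with Mkl1 siRNA and 6.53 with control siRNA. In both genes the 4 arrays lay within 0.1.

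With Y-27632 the ribosomal protein genes stayed close to the DMSO array. The median difference of the 46 genes was -0.02, with quartiles of -0.04 and 0.02 and a range of -0.53 to 0.12. None of the 46 reached 2-fold in either direction, where 1.49% of all 11600 measured genes did. They lay above 0 in 15 genes and below it in 31, where 50.4% of all measured genes lay above 0 and the median of all was 0.00. At 0.32 on the log2 scale 1 gene was counted, Rps25 on the low side, where 5.76% of all measured genes lay at least as low and 8.43% at least as high. Over the 23 genes left without probe sets of ambiguous name the median was -0.04, with 7 above 0; it was -0.01 with the mean of a gene's probe sets and -0.03 after loess. The median size of the difference, without its sign, was 0.04 for the ribosomal protein genes and 0.12 for all measured genes.

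Rps25, a small subunit protein needed for initiation on some internal ribosome entry sites, read 9.72 with Y-27632 and 10.25 with DMSO, and 9.71 with Mkl1 siRNA and 9.44 with control siRNA. The DMSO array stood above the other 3, and Rps25 was lower with Y-27632 than with DMSO by 0.53. Rps27, a zinc finger protein of the small subunit, followed with -0.24, reading 8.02 with Y-27632 and 8.26 with DMSO, and 8.08 with both Mkl1 siRNA and control siRNA. Here too the DMSO array was the highest. Rpl12 with -0.16, Rps3 with -0.11 and Rpl27a with -0.10 completed the 5 lowest. At the high end stood Rpl14 with 0.12, Rpl39l with 0.10, Rpl37 with 0.09, Rps27l with 0.07 and Rps6 with 0.07. Rpl37, a zinc-binding protein of the large subunit, read 12.11 with Y-27632 and 12.02 with DMSO, and 11.91 with Mkl1 siRNA and 11.82 with control siRNA.

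**Figure D2:**
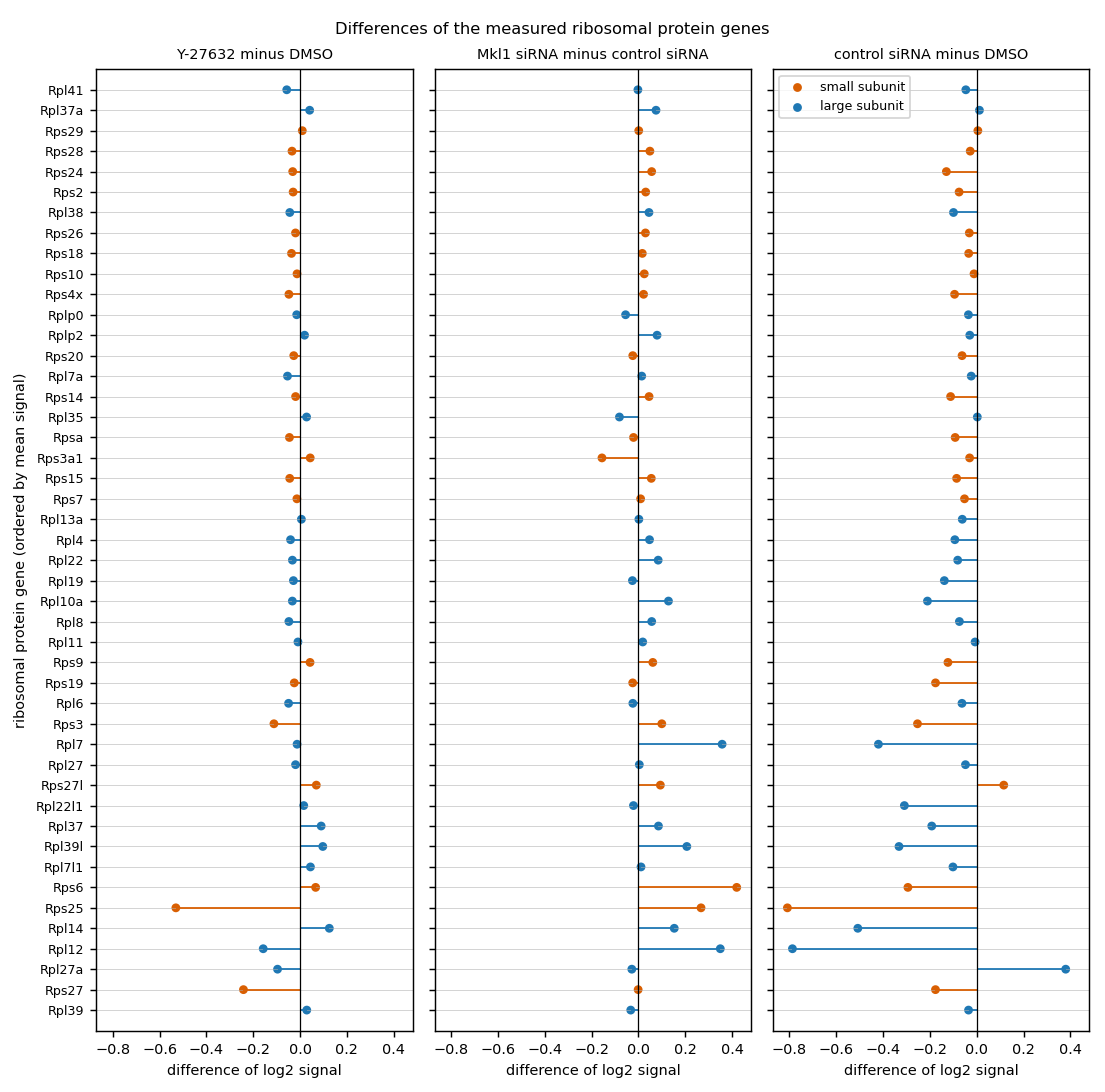
Difference of log2 signal (x axis) for each of the 46 measured ribosomal protein genes (rows, ordered by mean signal) in the 3 comparisons, coloured by subunit, with 1 array on each side of every difference. Most points lie within 0.1 of 0, Rps25 stands at -0.53 with Y-27632, Rps6, Rpl7 and Rpl12 stand between 0.35 and 0.42 with Mkl1 siRNA, and in the right panel 41 genes lie below 0.

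With Mkl1 siRNA the ribosomal protein genes were slightly higher than with control siRNA, and a few of them more clearly so. The median difference was 0.03, with quartiles of -0.00 and 0.08 and a range of -0.16 to 0.42, and the median size was 0.05, against 0.19 for all measured genes. None of the 46 reached 2-fold in either direction, where 3.53% of all measured genes did. The genes lay above 0 in 33 cases and below in 13, where 50.1% of all measured genes lay above 0. The median was 0.01 over the 23 genes left without probe sets of ambiguous name and 0.05 with the mean of a gene's probe sets. At 0.32, 3 genes were counted, all on the high side, where 15.1% of all measured genes lay at least as high and 15.2% at least as low, so the share of the ribosomal protein genes past this limit was below the background.

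The 3 genes were Rps6, Rpl7 and Rpl12. Rps6, the small subunit protein that S6 kinases phosphorylate, read 10.62 with Mkl1 siRNA and 10.20 with control siRNA, and 10.56 with Y-27632 and 10.49 with DMSO. Rpl7, a large subunit protein, read 13.65 with Mkl1 siRNA and 13.29 with control siRNA, and 13.70 with Y-27632 and 13.71 with DMSO. In both genes it was the control siRNA array that stood below the other 3, which lay within 0.13 of each other for Rps6 and closer still for Rpl7. The differences were 0.42 for Rps6 and 0.36 for Rpl7, and against the DMSO array the Mkl1 siRNA array differed by 0.13 and -0.06. The other probe sets of Rpl7 gave 0.35 and 0.39 with Mkl1 siRNA, and the second, dim probe set of Rps6 gave 0.26. That dim probe set also gave 0.46 with Y-27632, where the brighter one gave 0.07. Rpl12, which sits at the base of the stalk that recruits elongation factors, read 8.41 with Mkl1 siRNA and 8.06 with control siRNA, and 8.69 with Y-27632 and 8.85 with DMSO. Its difference was 0.35 against control siRNA and -0.44 against DMSO, so its direction depended on which control array was used.

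The lowest difference with Mkl1 siRNA belonged to Rps3a1, a small subunit protein near the mRNA exit channel. It read 13.91 with Mkl1 siRNA and 14.07 with control siRNA, and 14.14 with Y-27632 and 14.10 with DMSO, a difference of -0.16 with the Mkl1 siRNA array as the lowest of the 4. Rpl35 followed with -0.08, Rplp0 with -0.05, and Rpl39 and Rpl27a with -0.03 each. Rpl35, a protein at the mouth of the exit tunnel, read 14.02 with Mkl1 siRNA and 14.10 with control siRNA, and 14.13 with Y-27632 and 14.10 with DMSO. The Mkl1 siRNA array was the low one there as well.

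Between the control arrays the ribosomal protein genes lay further from 0 than in either treatment comparison. With control siRNA 41 of the 46 genes read lower than with DMSO and 5 read higher, where 48.5% of all measured genes were higher. The median difference was -0.08, with quartiles of -0.17 and -0.03 and a range of -0.81 to 0.38, against a median of -0.01 over all measured genes. None of the 46 reached 2-fold in either direction, where 2.04% of all measured genes did. At 0.32, 5 genes were counted as lower and 1 as higher, where 13% of all measured genes lay at least as low and 11% at least as high. The median size was 0.09, against 0.17 for all measured genes, and 41 of 46 lay to one side. The size of the median depended on the processing: it was -0.26 over the 23 genes left without probe sets of ambiguous name, -0.12 with the mean of a gene's probe sets and -0.12 after loess. The 50 other genes of like signal had a median of 0.06 in this comparison and 35 of them lay above 0.

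The 5 lowest genes were Rps25 with -0.81, Rpl12 with -0.79, Rpl14 with -0.51, Rpl7 with -0.42 and Rpl39l with -0.33. Rpl14, a large subunit protein, read 8.61 with control siRNA and 9.12 with DMSO, and 8.76 with Mkl1 siRNA and 9.24 with Y-27632. Both siRNA arrays lay below both arrays of cells treated without siRNA. The same held for Rpl12, while in Rpl7 only the control siRNA array was low and in Rps25 the DMSO array was also apart at the high end. Rpl27a, a large subunit protein, was the highest with 0.38. It read 8.67 with control siRNA and 8.29 with DMSO, and 8.64 with Mkl1 siRNA and 8.19 with Y-27632, so here both siRNA arrays lay above the other 2. Rps27l followed with 0.12, then Rpl37a with 0.01, and Rps29 and Rpl35 with 0.00.

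Counted over all 4 arrays, the DMSO array held the highest reading for 26 of the 46 genes and the control siRNA array the lowest for 25. Such counts were not made over all measured genes, so they have no background here. The control siRNA array held the highest reading for only 1 gene and the DMSO array the lowest for 3. The choice of control array therefore set the sign of the family's shift. Against control siRNA the Y-27632 array had a median difference of 0.05 with 37 of 46 genes above 0, where 52.4% of all measured genes were above 0. Against DMSO the Mkl1 siRNA array had a median of -0.06 with 10 of 46 above 0, where 49.1% of all measured genes were. The siRNA, its transfection and the absence of DMSO all set the control siRNA array apart from the DMSO array. With 1 array each, their parts cannot be told apart from each other or from differences in the handling of single arrays.

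Small and large subunit genes differed by similar amounts. With Y-27632 the medians were -0.03 over 21 small subunit genes and -0.01 over 25 large subunit genes, with 5 and 10 genes above 0. With Mkl1 siRNA they were 0.03 and 0.02, with 16 and 17 above 0. Between control siRNA and DMSO they were -0.09 and -0.07, with 2 and 3 above 0. No difference between the subunits was tested, since genes are not replicates.

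Among the functional parts of the ribosome, the P stalk, which recruits the translation factors with GTPase activity, was represented by Rplp0 and Rplp2. Rplp0 read 14.17 with Y-27632 and 14.19 with DMSO, and 14.10 with Mkl1 siRNA and 14.15 with control siRNA. Rplp2 read 14.16 with Y-27632 and 14.14 with DMSO, and 14.19 with Mkl1 siRNA and 14.11 with control siRNA. Rplp0 was lowest and Rplp2 highest on the Mkl1 siRNA array, in both cases by less than 0.1. The proteins at the mRNA entry channel, Rps2, Rps3 and Rps9, differed by -0.03, -0.11 and 0.04 with Y-27632 and by 0.03, 0.10 and 0.06 with Mkl1 siRNA. Rps3 read 13.65 with Y-27632 and 13.76 with DMSO, and 13.61 with Mkl1 siRNA and 13.51 with control siRNA, the widest distance of the 3. At the rim of the exit tunnel, Rpl19, Rpl35 and Rpl39 were the measured genes of 7 listed, and all 3 lay below 0 with Mkl1 siRNA, at -0.03, -0.08 and -0.03.

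Of 6 genes listed as references in quantitative PCR 4 were measured, and Rps16 was among those that were not. On their brightest probe sets the 4 stayed within 0.2 over the arrays, as did 31 of all 46 ribosomal protein genes. Rps18 read 14.17 with Y-27632 and 14.20 with DMSO, and 14.18 with Mkl1 siRNA and 14.17 with control siRNA. Rpl13a read 14.02 with both Y-27632 and DMSO, and 13.96 with both Mkl1 siRNA and control siRNA. Rpl19 read 13.92 with Y-27632 and 13.95 with DMSO, and 13.78 with Mkl1 siRNA and 13.81 with control siRNA. In Rpl13a and Rpl19 both siRNA arrays lay below the other 2, by an amount that was larger than the difference of either treatment from its own control. Over the 4 reference genes measured, each on its brightest probe set, the largest distance between any 2 arrays was 0.16, for Rpl19. Some other probe sets of Rpl13a were less flat. The dimmest of its 4 read 11.82 with Mkl1 siRNA and 12.41 with DMSO, a difference of -0.60, and the next gave -0.38 between the same arrays. The remaining one gave only -0.05 between them, reading 13.85 with Mkl1 siRNA and 13.90 with DMSO.

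Of 18 genes listed for Diamond-Blackfan anaemia, a human red cell aplasia caused by ribosomal protein mutations, 11 were measured under their own probe set. Their medians were -0.02 with Y-27632, 0.01 with Mkl1 siRNA and -0.03 between control siRNA and DMSO. None of the 11 reached 0.32, and of all 46 ribosomal protein genes only 1, 3 and 6 did. Of all measured genes 8.43%, 15.1% and 11% were at least as high, and 5.76%, 15.2% and 13% at least as low. Rps19, the gene first linked to the disease, read 13.80 with Y-27632 and 13.82 with DMSO, and 13.62 with Mkl1 siRNA and 13.65 with control siRNA. As for Rpl19, its siRNA arrays were the lower ones.

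The paralogs, near-copies that can replace or accompany a ribosomal protein, were measured for 4 genes. Between control siRNA and DMSO 3 of them shared the sign of their partner, where 41 of all 46 ribosomal protein genes lay below 0. Rpl22l1, the paralog of Rpl22, read 13.13 with Y-27632 and 13.12 with DMSO, and 12.79 with Mkl1 siRNA and 12.81 with control siRNA. Rpl22 itself read 13.95 with Y-27632 and 13.98 with DMSO, and 13.99 with Mkl1 siRNA and 13.90 with control siRNA. Both siRNA arrays lay below the other 2 in Rpl22l1, while in Rpl22 the Mkl1 siRNA array was the highest. Rpl39l, the paralog of Rpl39, read 11.67 with Y-27632 and 11.58 with DMSO, and 11.45 with Mkl1 siRNA and 11.24 with control siRNA. Both siRNA arrays were the lower ones, as they were, by less, in Rpl39. Rps27l, the paralog of Rps27 and a known target of p53, read 13.42 with Y-27632 and 13.35 with DMSO, and 13.56 with Mkl1 siRNA and 13.47 with control siRNA. Rps27l thus ran the other way from Rpl22l1 and Rpl39l, with both siRNA arrays above the other 2, and all 3 of its probe sets gave 0.12 between control siRNA and DMSO. Rpl7l1, the paralog of Rpl7, read 10.56 with Y-27632 and 10.52 with DMSO, and 10.43 with Mkl1 siRNA and 10.42 with control siRNA, without the low control siRNA reading seen in Rpl7.

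Probe sets of the same gene did not always give the same difference, and the dimmer ones lay further from 0 in all 3 comparisons, mostly to the low side between control siRNA and DMSO. With 2 or more measured probe sets there were 22 genes and 73 probe sets. All probe sets of a gene shared 1 sign in 10 of the 22 genes with Y-27632, in 12 with Mkl1 siRNA and in 16 between control siRNA and DMSO. The median distance between the lowest and highest difference of a gene's probe sets was 0.07, 0.12 and 0.20 in these comparisons. It was widest in Rps24, at 0.49, 0.82 and 1.18. In each comparison this distance lay between the dimmest probe set of Rps24 and the next dimmest. The dimmest read 5.72 with Y-27632 and 5.33 with DMSO, and 5.38 with Mkl1 siRNA and 5.63 with control siRNA. It reached the limit for a measured gene on the Y-27632 array alone, so the distance rests on readings near that limit.

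Between control siRNA and DMSO, the 25 probe sets with a mean signal under 13 had a median of -0.29, and 22 of them were below 0 and 10 reached 0.32 on the low side. The 48 probe sets with a mean signal of 13 or more had a median of -0.06, with 39 below 0 and 2 at 0.32 on the low side. With Y-27632 the signed medians were -0.01 for both sets, and with Mkl1 siRNA they were 0.04 and 0.05. Without the sign, the dimmer set lay further from 0 in all 3 comparisons. Its median size was 0.07 against 0.03 for the brighter set with Y-27632, 0.12 against 0.05 with Mkl1 siRNA, and 0.30 against 0.08 between the control arrays. Within genes the order was the same. In 14 genes that had a dim and a bright probe set, the dimmest gave a median of -0.34 and the brightest one of -0.06 between control siRNA and DMSO. The median sizes in these 14 genes were 0.06 on the dimmest and 0.03 on the brightest with Y-27632, and 0.11 and 0.04 with Mkl1 siRNA. Rpl41 is an example, with -0.92 on its dimmest probe set and -0.05 on its brightest. That dim probe set read 6.83 with control siRNA and 7.75 with DMSO, and 7.07 with Mkl1 siRNA and 7.30 with Y-27632. Rps9 gave -0.71 on its dimmest and -0.12 on its brightest probe set. Rpl7 gave nearly the same value on both, -0.46 and -0.42.

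**Figure D3:**
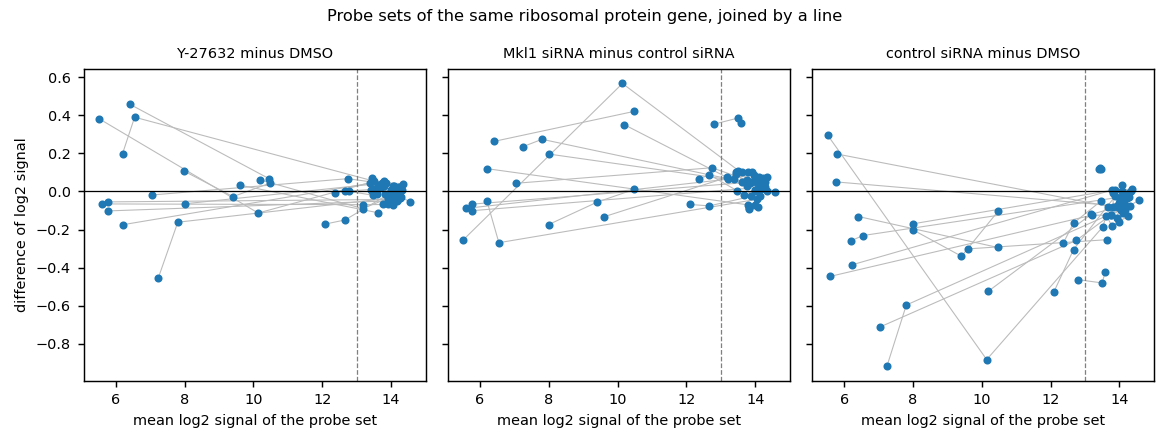
Difference of log2 signal (y axis) against the mean signal of the probe set (x axis) for the 73 measured probe sets of the 22 ribosomal protein genes with several, with lines joining probe sets of 1 gene and a dashed line at 13. In the right panel (control siRNA minus DMSO) the dimmer probe sets reach -0.92 and most lie below 0, while the bright ones have a median of -0.06.

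The probe sets shared between a ribosomal protein symbol and others gave nearly the same picture as the genes read on their own. Of the 110, 105 were measured, with a median signal of 13.88. Their medians were -0.01 with Y-27632, 0.03 with Mkl1 siRNA and -0.09 between control siRNA and DMSO, with 44, 69 and 9 of 105 above 0. Of all measured genes 50.4%, 50.1% and 48.5% lay above 0. None of the 105 reached 2-fold in these 3 comparisons, where 1.49%, 3.53% and 2.04% of all measured genes did. At 0.32, 2 were higher and 1 lower with Y-27632, 2 were higher with Mkl1 siRNA, and 6 were lower between the control arrays. Of all measured genes 8.43% were at least as high and 5.76% at least as low with Y-27632, 15.1% at least as high with Mkl1 siRNA, and 13% at least as low between the control arrays. Fau, which encodes a small subunit protein fused to a ubiquitin-like domain and falls outside the symbol rule, differed by -0.03, 0.02 and -0.06.

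The array carries 3 control probe sets for 18S ribosomal RNA, the RNA of the small subunit, and these did not follow the ribosomal protein genes. The 3' probe set read 11.01 with Y-27632 and 11.59 with DMSO, and 11.30 with Mkl1 siRNA and 11.74 with control siRNA. The middle one read 11.36 with Y-27632 and 11.83 with DMSO, and 11.55 with Mkl1 siRNA and 12.04 with control siRNA. The 5' one read 11.55 with Y-27632 and 12.03 with DMSO, and 11.68 with Mkl1 siRNA and 12.18 with control siRNA. All 3 probe sets put both treated arrays below both control arrays, and the control siRNA array highest. The differences ran from -0.58 to -0.47 with Y-27632, from -0.50 to -0.43 with Mkl1 siRNA and from 0.14 to 0.21 between control siRNA and DMSO.

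Set against the ribosomal protein genes, every one of the 46 lay above all 3 of the 18S differences with Mkl1 siRNA, and 45 of 46 did so with Y-27632, Rps25 being the exception. Between control siRNA and DMSO 45 of the 46 lay below all 3, with Rpl27a above them. The 18S median relative to the ribosomal protein median was -2.61 with Y-27632 and -2.17 with DMSO, and -2.38 with Mkl1 siRNA and -1.88 with control siRNA, and only the change of this distance between arrays can be read. Among all 11600 measured genes, 2.41% lay at or below the highest 18S difference with Y-27632 and 10.1% with Mkl1 siRNA. Between control siRNA and DMSO 80.3% lay at or below it. In each comparison most measured genes thus lay on the same side of the highest 18S difference as the ribosomal protein genes. Among the 50 genes matched to the signal of the ribosomal proteins, which read above 18S, the counts were 1, 5 and 42. The 3 probe sets bind 1 RNA and are not replicates.

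Other controls on the arrays also differed, and their part in the 18S and the ribosomal protein values was not tested. The 18 probe sets for the spikes added at hybridisation had median differences of -0.14 with Y-27632, 0.07 with Mkl1 siRNA and 0.19 between the control arrays. The 24 for the spikes added before labelling had medians of 0.30, 0.26 and -0.32, the opposite direction to 18S in all 3 comparisons. The ribosomal protein medians were -0.02, 0.03 and -0.08. They had the direction of these spikes with Mkl1 siRNA and between the control arrays, and the opposite one with Y-27632. The control probe sets for Actb, cytoplasmic beta-actin, had medians of -0.33, -0.18 and 0.02, and those for Gapdh -0.09, -0.28 and -0.09. The 3' probe set of Actb exceeded its 5' one by 1.10 with Y-27632 and 0.84 with DMSO, and by 0.96 with Mkl1 siRNA and 0.81 with control siRNA. Ribosomal RNA has no poly(A) tail, and the sources used here do not say how it entered the labelled material.

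**Figure D4:**
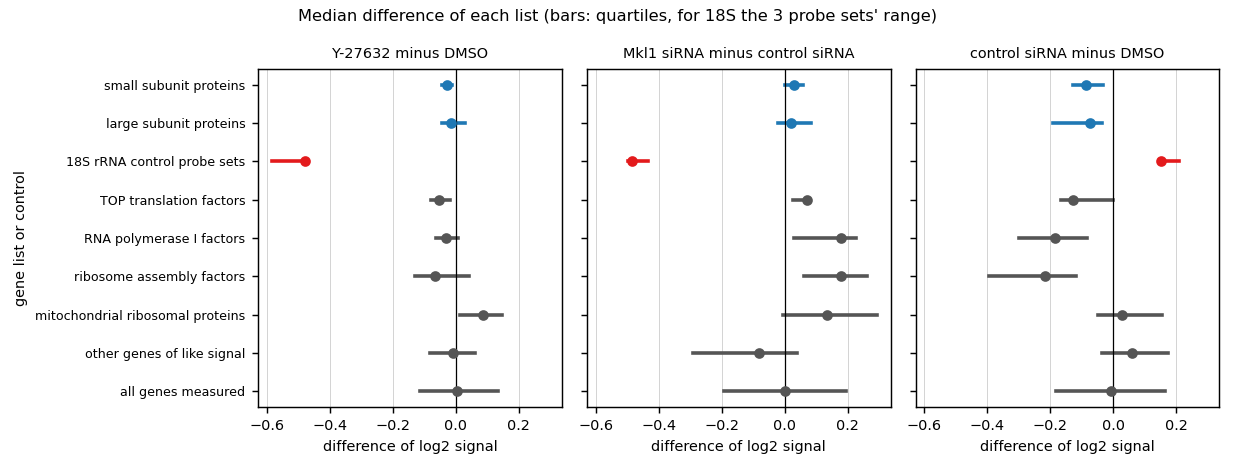
Median difference of log2 signal (x axis) of the ribosomal protein genes by subunit, the 18S control probe sets and related gene lists (rows) in the 3 comparisons, where bars span the quartiles and, for 18S, the range of 3 probe sets. The medians of both subunits lie within 0.1 of 0 throughout, and their quartile bars reach -0.13 and -0.19 between the control arrays. The 18S median lies near -0.48 in both treatment panels and near 0.15 between the control arrays. The median of the assembly factors lies at 0.18 with Mkl1 siRNA and -0.22 between the control arrays.

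The genes that build ribosomes differed more than the proteins they assemble, and they were read lower on the scale, where the highest reading was that of the nucleolar chaperone Npm1 at 13.11 with DMSO. The part of signal in this was not tested. Without the sign, the median size of their difference was 0.08 with Y-27632, 0.19 with Mkl1 siRNA and 0.22 between the control arrays. For all measured genes it was 0.12, 0.19 and 0.17, and 50.4%, 50.1% and 48.5% of them lay above 0. Of the 47 measured assembly factors, 15 lay above 0 with Y-27632, the median was -0.07, and none reached 0.32, where 8.43% of all measured genes were at least as high and 5.76% at least as low. With Mkl1 siRNA 40 of 47 lay above 0, with a median of 0.18, and 9 were at least 0.32 higher and 1 at least 0.32 lower, where 15.1% of all measured genes were at least as high and 15.2% at least as low. Between control siRNA and DMSO 43 lay below 0, with a median of -0.22, and 16 were at least 0.32 lower and none higher, where 13% of all measured genes were at least as low and 11% at least as high. Against the DMSO array the Mkl1 siRNA array gave a median of -0.07 for the same list with 14 of 47 above 0, so the higher readings with Mkl1 siRNA were tied to the control siRNA array.

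Dkc1, the pseudouridine synthase of ribosomal RNA, read 10.14 with Mkl1 siRNA and 9.65 with control siRNA, and 10.34 with Y-27632 and 10.56 with DMSO. Rrp12, a factor for export of the subunits, read 7.06 with Mkl1 siRNA and 6.42 with control siRNA, and 6.99 with Y-27632 and 7.06 with DMSO. Nop56, a core protein of the box C/D particles that methylate ribosomal RNA, read 10.05 with Mkl1 siRNA and 9.74 with control siRNA, and 10.24 with Y-27632 and 10.43 with DMSO. In all 3 the control siRNA array was the lowest of the 4. Sbds, which helps release Eif6 from the large subunit, was the exception at the low end with Mkl1 siRNA. It read 8.86 with Mkl1 siRNA and 9.26 with control siRNA, and 8.87 with Y-27632 and 8.95 with DMSO, and here the control siRNA array was the highest.

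RNA polymerase I and its factors, which make the ribosomal RNA precursor, gave similar medians. The 18 measured genes had medians of -0.03 with Y-27632, 0.18 with Mkl1 siRNA and -0.19 between control siRNA and DMSO. Of these, 6, 15 and 4 lay above 0, where 50.4%, 50.1% and 48.5% of all measured genes did. Rrn3, which recruits the polymerase to the gene, read 9.18 with Mkl1 siRNA and 8.67 with control siRNA, and 8.99 with Y-27632 and 9.02 with DMSO. Polr1a, the largest subunit of the polymerase, read 7.90 with Mkl1 siRNA and 7.54 with control siRNA, and 7.94 with Y-27632 and 7.89 with DMSO. Both stood low on the control siRNA array alone.

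**Figure D5:**
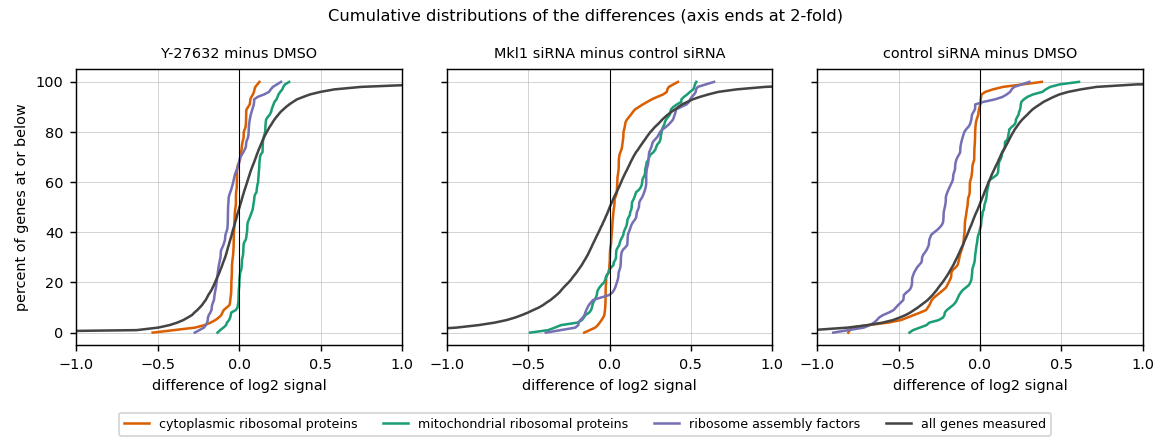
Cumulative percent of genes (y axis) at or below each difference of log2 signal (x axis, drawn to 2-fold) for cytoplasmic ribosomal proteins (46 genes), mitochondrial ribosomal proteins (76), ribosome assembly factors (47) and all measured genes (11600). The curve of the cytoplasmic ribosomal proteins is the steepest in each panel, and the assembly factors lie right of 0 with Mkl1 siRNA and left of it between the control arrays.

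Translation factors whose mRNAs also begin with an oligopyrimidine tract lay close to the ribosomal proteins. The 18 measured genes had medians of -0.06 with Y-27632, 0.07 with Mkl1 siRNA and -0.13 between control siRNA and DMSO. Above 0 lay 4, 15 and 5 of them, where 50.4%, 50.1% and 48.5% of all measured genes did. Eef1a1, which brings aminoacyl-tRNA to the ribosome, read 14.39 with Y-27632 and 14.41 with DMSO, and 14.45 with Mkl1 siRNA and 14.40 with control siRNA. Eef2, the translocation factor, read 13.88 with Y-27632 and 13.95 with DMSO, and 13.73 with Mkl1 siRNA and 13.65 with control siRNA. Eef1a1 was flat, and Eef2 was lower on both siRNA arrays.

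The upstream growth control genes lay below 0 more often than above it in all 3 comparisons. The 14 measured genes had medians of -0.05 with Y-27632, -0.05 with Mkl1 siRNA and -0.09 between control siRNA and DMSO. Above 0 lay 4, 6 and 5 of them (28.6%, 42.9% and 35.7%), where 50.4%, 50.1% and 48.5% of all measured genes did. With 14 genes, these gaps rest on few genes, above all with Mkl1 siRNA. Myc, the transcription factor known to drive ribosome production, read 9.92 with Y-27632 and 10.01 with DMSO, and 9.57 with Mkl1 siRNA and 9.65 with control siRNA. Larp1, which binds the oligopyrimidine tract, read 10.34 with Y-27632 and 10.50 with DMSO, and 10.30 with Mkl1 siRNA and 10.40 with control siRNA. Mdm2, the ubiquitin ligase to which Rpl11 can bind, read 11.67 with Mkl1 siRNA and 11.32 with control siRNA, and 10.97 with Y-27632 and 11.05 with DMSO. Its siRNA arrays were the higher ones, with Mkl1 siRNA above control siRNA.

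Mitochondrial ribosomal proteins, which serve the separate ribosome of the mitochondrion, were 76 measured genes. Their median difference was 0.09 with Y-27632, with 62 of 76 above 0, and 0.14 with Mkl1 siRNA, with 56 above 0. Between control siRNA and DMSO it was 0.03, with 44 above 0. Of all measured genes 50.4%, 50.1% and 48.5% lay above 0 in these comparisons. None reached 0.32 with Y-27632, where 8.43% of all measured genes were at least as high and 5.76% at least as low. With Mkl1 siRNA 15 did so on the high side and 3 on the low side, where 15.1% and 15.2% of all measured genes did. Mrpl12, a large subunit protein of the mitochondrial ribosome, was the highest with Mkl1 siRNA and read 10.54 with Mkl1 siRNA and 10.00 with control siRNA, and 10.29 with Y-27632 and 10.02 with DMSO. Both treated arrays lay above both control arrays there, an order that the cytoplasmic genes as a group did not show.

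The cells and the knockdown were checked on the same arrays. Mrtfa read 7.70 with Mkl1 siRNA and 8.55 with control siRNA, a difference of -0.85, and 8.18 with Y-27632 and 8.32 with DMSO. Of the fibroblast markers 9 of 9 with a probe set were measured, while 3 of 6 leukocyte, 1 of 5 endothelial, 1 of 5 myoblast and 1 of 4 epithelial markers were. The fibroblast markers had a median difference of 0.00 with Y-27632, with 5 of 9 above 0. With Mkl1 siRNA all 9 were below control siRNA, with a median of -0.32, and Col1a1, a chain of type I collagen, was the lowest at -1.05. Mature adipocyte markers were measured for 5 of 6, Lep being the exception, and over all 6 the median signal was 12.33 with Y-27632 and 8.79 with DMSO, and 11.97 with Mkl1 siRNA and 8.59 with control siRNA. The linear signals of the listed adipocyte genes summed to 52594 with Y-27632 and 24203 with DMSO, and to 55258 with Mkl1 siRNA and 24583 with control siRNA. The 5 measured adipocyte markers were all above their control array, the median difference being 3.18 for Y-27632 and 2.92 for Mkl1 siRNA. The part of either marker list in the ribosomal protein values was not tested. In RNA of whole cultures, fewer cells of a type and less RNA per cell cannot be told apart.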

How the data were processed

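The authors deposited log2 signals for each probe set and array, computed with RMA per the submitters' processing notes, which corrects background, quantile-normalises the arrays and summarises probes. The sources used here do not state its version, the chip definition or which arrays were normalised as a set. Quantile normalisation removes differences in total RNA per cell, and the log2 scale was read from the deposited values, which ran from 2.02 to 14.6. Of 45101 probe sets, 34945 had 1 symbol in the platform annotation, 932 several and 9160 none, and 64 were controls. Symbols were updated through RefSeq gene numbers (GRCm38.p6) for 34741. Where a gene had several probe sets, the one with the highest mean was used; of the 46 chosen, 32 had names ending in _s_at, _x_at or _a_at, endings used for probe sets that can match more than 1 transcript.

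Differences were computed in Python 3.11.15 with pandas 2.3.3, and loess with statsmodels 0.14.6. Genes were counted from 2-fold and, as an alternative, from 1.5-fold (0.58) and from 0.32 on the log2 scale, with the shares of all 11600 measured genes as the background. With 1 array per group the number of arrays limits the precision, and no p-value, no interval over arrays and no leave-one-out was possible. The calculations were tested on simulated data.

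The genes, gene lists and rules were chosen with earlier results of these data known. Values on all arrays are given for the 5 highest and 5 lowest genes of each comparison or, for some, the difference alone, for the highest and lowest mean signal, and for up to 4 genes of each list; Rpl10a, Rps24 and the probe sets of Rpl41, Rps9 and Rpl7 were picked after their values were seen. Also tried were averaging a gene's probe sets, leaving out those with ambiguous names, dropping the filter, raising it to the 75th percentile (8.08), loess over all genes (span 0.3), subtracting the median of all genes, leaving out paralogs and the other control array. Promoter windows of 300 bases came from RefSeq. Protein sequences were not used here.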

Additional observations from a re-analysis of the deposited data

How the results depend on the processing

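Of 79 recomputed values, 63 stayed within set limits (for a median its rank interval over the genes, which are not replicates, so that it is a yardstick and no error; for a count 1.5 times) and 16 did not, and none of the 3 medians changed sign except with the other control array. Against that array the median was 0.048 with 37 genes above 0 for Y-27632, and -0.062 with 10 above 0 for Mkl1 siRNA. Without the ambiguous probe sets 23 genes were left, with a median of -0.044 and 7 above 0 for Y-27632, 13 above 0 for Mkl1 siRNA, and a median of -0.26 and 2 above 0 between control siRNA and DMSO. The last comparison also gave -0.12 with the mean of all probe sets, and -0.12 with 2 above 0 after loess, against -0.08 and 5. The cause was not tested. Counts past the threshold were 1 (Y-27632) and 3 (Mkl1 siRNA) at 0.32, and 2 at 0.58 and 6 at 0.32 between the control arrays. Of all measured genes 8.43%, 15.1% and 11% were at least 0.32 higher in the 3 comparisons, and 5.76%, 15.2% and 13% at least 0.32 lower. Between the control arrays 397 of all 11600 measured genes were at least 0.58 higher and 475 at least 0.58 lower. A lower threshold can only add to such counts. The counts above 0 over 23 genes were held against counts over 46, so the smaller set alone can carry them past the limits. The probe sets shared with other symbols and the genes of mean signal 13 or more, both added after the data were seen, stayed within the limits. Most of the genes read at 13 or more, near the highest value of 14.6, and whether this understates their differences was not tested. No paired analysis was possible because each group had 1 array.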
